A study of Mus musculus with 6 samples.

Results

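Mast cells of the mouse colon were followed through 10 transcripts, namely the chymases Mcpt1, Mcpt2, Mcpt4 and Cma1, the tryptase Tpsb2, the carboxypeptidase Cpa3, the surface receptors Kit, Fcer1a and Ms4a2, and Hdc, the enzyme that makes histamine. They were picked by gene symbol, and all 10 were found among the 24797 genes of the deposited count table. The libraries came from colonic tumors of mice given azoxymethane, a colon carcinogen, and dextran sulfate sodium, which injures the colonic lining (AOM/DSS). Of the 6 libraries, 3 carried the wildtype glucocorticoid receptor (GRwt) and 3 a receptor deficient in dimerization (GRdim). Both groups carried tumors and both had the AOM/DSS treatment, so no untreated or tumor-free tissue enters the comparison. Strain, age and the number of animals are not given in the labels, nor do they state that each library had its own animal. The p-values therefore weigh only how these samples scattered, which may be technical scatter.

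Mast cells store proteases in granules and release them, with histamine, when IgE bound to its high-affinity receptor is cross-linked. In mice they are described as a mucosal type, which lies in and under the epithelium and stores the chymases Mcpt1 and Mcpt2, and a connective tissue type, which lies in the submucosa, around vessels and near muscle and stores Mcpt4, Cma1 (also called Mcpt5) and the tryptase Tpsb2 (also called Mcpt6). Cpa3 is made by both. Glucocorticoids, which act through the receptor altered in GRdim mice, are known to reduce intestinal mast cells and the release of their mediators.

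Library totals ran from 21132981 to 36222351 counts. GRwt replicate 3 and GRdim replicate 1, which carry a T in their library names, held 2.51% and 2.05% of their counts in the ribosomal sequence Rn18s-rs5, against 0.0466% to 0.0725% in the other 4 libraries. GRdim replicates 1 and 3 have library names that share a number, and a common animal is neither stated nor denied in the labels. Levels are given as CPM, the counts divided by the library total after TMM scaling and expressed per 1e6. GRdim replicate 2 stood alone in Y-linked Ddx3y (59.5 CPM) and in its low Xist (0.255 CPM), and Xist ran from 517 to 1278 CPM elsewhere. The 8 epithelial markers, among them Krt20, Krt18 and Epcam, had a summed level of 10442 to 15203 CPM in GRwt libraries. In GRdim libraries it was 10154 to 12027 CPM. All 8 had a lower mean in GRdim, 0 of them with an unadjusted p under 0.05 by edgeR. Without tumor-free tissue these levels cannot tell tumor from other colonic epithelium.

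The 4 chymase members lie in 1 cluster on chromosome 14 (GRCm39), Cma1 at 56178908 to 56182132 on the minus strand, Mcpt1 at 56255428 to 56257841 and Mcpt2 at 56279498 to 56282099 on the plus strand, and Mcpt4 at 56297086 to 56299770 on the minus strand. Tpsb2 lies on chromosome 17 at 25585279 to 25588072. The sequences upstream of the start site are shown for 3 chymases and Cpa3, because Mcpt1 and Mcpt4 have much the same upstream sequence and yet, as given below, different levels across the libraries. They are the 250 bases before the start from RefSeq (GRCm38.p6), 5′ to 3′ on the gene's strand, at chr14:56017714-56017963 (plus) for Mcpt1, chr14:56062311-56062560 (minus) for Mcpt4, chr14:55944676-55944925 (minus) for Cma1 and chr3:20242182-20242431 (minus) for Cpa3. Capitals mark GATAA, the core bound by GATA factors, which reads TTATC where it lies on the other strand.
Mcpt1: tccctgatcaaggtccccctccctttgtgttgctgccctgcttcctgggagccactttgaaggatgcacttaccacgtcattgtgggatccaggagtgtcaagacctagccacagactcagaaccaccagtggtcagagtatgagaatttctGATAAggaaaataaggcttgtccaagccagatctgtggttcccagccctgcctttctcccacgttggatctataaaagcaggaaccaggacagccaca
Mcpt4: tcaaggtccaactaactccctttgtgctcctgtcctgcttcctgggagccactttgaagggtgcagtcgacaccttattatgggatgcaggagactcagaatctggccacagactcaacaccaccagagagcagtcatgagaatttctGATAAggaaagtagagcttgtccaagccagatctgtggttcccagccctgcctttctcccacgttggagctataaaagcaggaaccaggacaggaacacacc
Cma1: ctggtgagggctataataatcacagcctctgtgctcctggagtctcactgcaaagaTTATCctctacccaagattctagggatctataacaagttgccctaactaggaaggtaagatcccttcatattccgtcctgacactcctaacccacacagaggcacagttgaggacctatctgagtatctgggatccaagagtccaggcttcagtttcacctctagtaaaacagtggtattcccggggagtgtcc
Cpa3: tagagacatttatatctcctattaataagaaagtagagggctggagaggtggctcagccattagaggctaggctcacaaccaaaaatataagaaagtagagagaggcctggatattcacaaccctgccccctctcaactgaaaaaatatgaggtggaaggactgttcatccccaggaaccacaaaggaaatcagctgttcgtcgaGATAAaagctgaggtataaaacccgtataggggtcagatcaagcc

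The upstream sequences of Mcpt1 and Mcpt4 were identical at 209 of 242 aligned bases (86.4%). Each holds 1 GATAA on the gene's strand, beginning 98 and 102 bases before the start, and 1 TATAAA beginning 28 and 32 bases before it. Cma1 has a GATAA on the other strand and no TATAAA on its own strand in this window, and it shared no stretch longer than 14 aligned bases with Mcpt1 or Mcpt4. Entries were found for 8 of the 10 members, with 2 for Kit, and Mcpt2 and Tpsb2 had none. GATAA, searched on both strands, was in the window for 6 of these 8 genes (Mcpt1, Mcpt4, Cma1, Cpa3, Fcer1a and Ms4a2) and in 22.6% of all 32851 windows of that length. TATAAA, searched on the gene's strand, was there for 4 of the 8 and in 7.59% of all windows. On both strands, CANNTG was found for 4 and in 66.2%, AGAACA for 1 (Hdc) and in 16.1%, and the exact palindrome of the glucocorticoid response element, to which receptor dimers bind, for 0 and in 3 of the 32851 windows. None of the GATAA matches overlapped a TATAAA. Such matches describe letters and not binding.

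With edgeR's quasi-likelihood test over 18756 genes, 0 of the 10 members had a Benjamini-Hochberg adjusted p under 0.05, as did 0% of all genes tested. An unadjusted p under 0.05 was found for 2 of the 10 (Tpsb2 and Cma1), against 2.88% of all genes tested. The genotypes overlapped in all 10 members, while they did not overlap for 6.55% of all genes (2.98% with GRdim above and 3.57% with GRdim below). With DESeq2, 0 members were called too, against 0.189% of all genes. 6 members had a higher and 4 a lower mean level in GRdim, with a median log2 fold change, GRdim over GRwt here and below, of 0.21, beside 0.004 for all genes tested. In bulk RNA, fewer mast cells and less RNA per mast cell cannot be told apart.

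**Figure D1:**
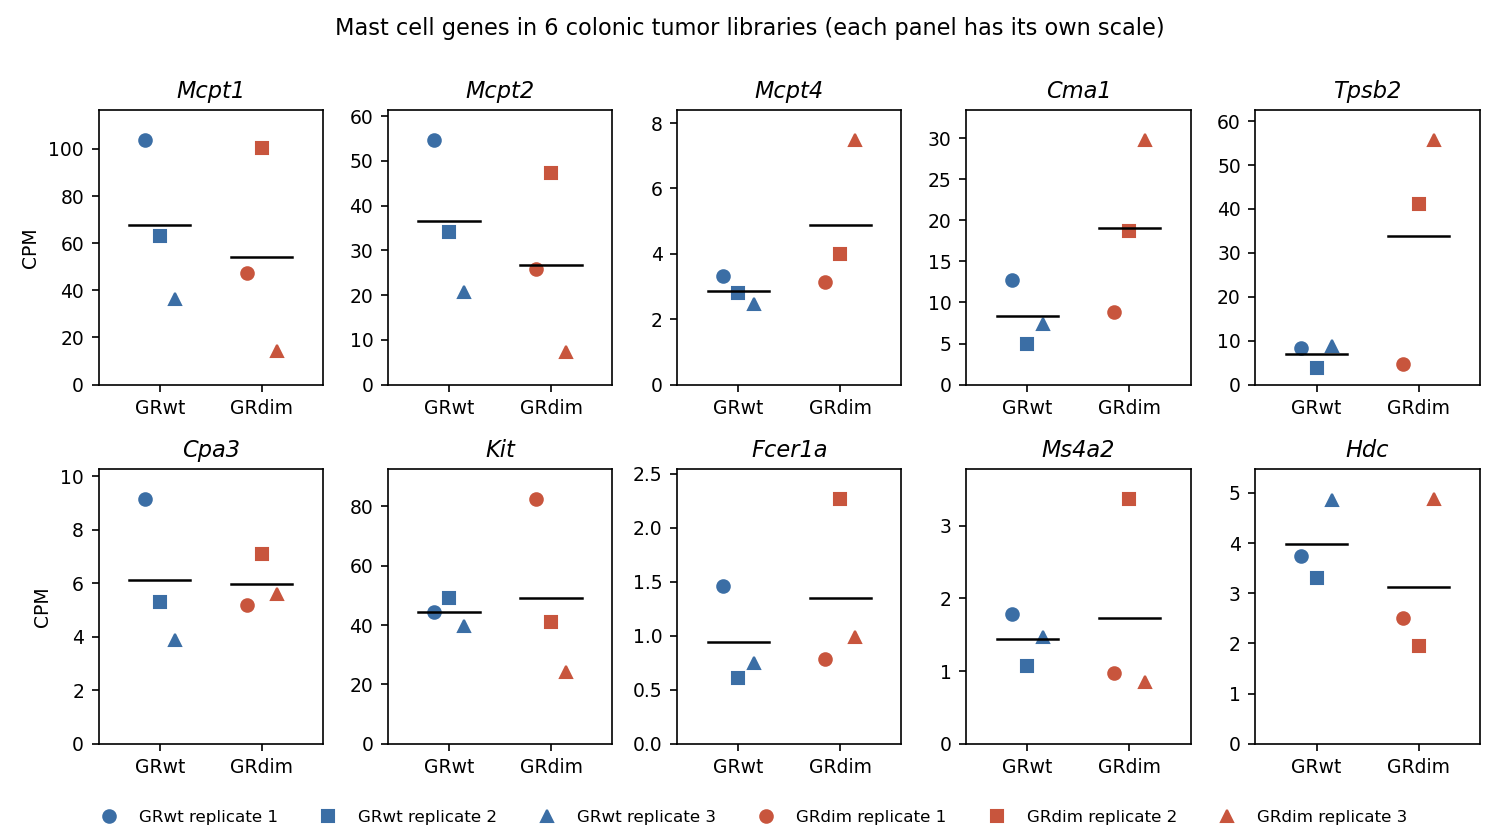
Level of each member in CPM (vertical axes, each with its own scale from 0) in the 3 GRwt and 3 GRdim libraries, with 1 point per library, its shape giving the replicate, and a line at the group mean. Mcpt1 and Mcpt2 have much the same pattern, Tpsb2 is high in GRdim replicates 2 and 3 alone, and Kit is highest in GRdim replicate 1.

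Among the 10 members the mucosal chymases Mcpt1 and Mcpt2 had the highest mean levels per kilobase of exon in both genotypes, though not in GRdim replicate 3. Mcpt1, the chymase released into gut tissue and blood during worm infection, stood at 104, 63.2 and 36.2 CPM in GRwt replicates 1, 2 and 3 and at 47.5, 100.3 and 14.4 CPM in GRdim replicates 1, 2 and 3. The libraries spread 7.22-fold, with GRwt replicate 1 and GRdim replicate 2 high and GRdim replicate 3 lowest. Means were 67.8 ± 34.1 CPM in GRwt and 54.0 ± 43.3 CPM in GRdim (SD, n = 3 per group), and the log2 fold change of -0.32 (SE 0.62) was smaller than its error (edgeR, unadjusted p = 0.612; exact permutation test of log2 CPM, two-sided, p = 0.6). The smallest p that 3 libraries against 3 allow in that permutation test is 0.1. Its direction rested on single libraries: it was 0.12 with either GRwt replicate 1 or GRdim replicate 3 left out, but -1.14 with GRdim replicate 2 left out.

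Mcpt2, the second mucosal chymase, followed Mcpt1 closely, at 54.7, 34.1 and 20.6 CPM in GRwt and 25.7, 47.3 and 7.35 CPM in GRdim replicates 1 to 3. Its log2 fold change was -0.44 (SE 0.59, edgeR unadjusted p = 0.473). Of the counts of both genes, Mcpt1 took between 63.6% (95% exact binomial interval 61.5% to 65.7%, GRwt replicate 3) and 67.9% (66.6% to 69.2%, GRdim replicate 2). These intervals do not overlap and cover counting error only. The ratio of Mcpt1 to Mcpt2 counts ran from 1.75 to 2.12, while each gene spread more than 7-fold. Measured as the root mean square distance between centred log2 CPM over the 6 libraries, this pair was the closest of the 45 pairs of members, at 0.085. Both transcripts were 82.3% identical over 960 aligned bases, with a longest identical stretch of 49 bases, and how reads that fit both were counted is not given in the sources used here.

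The connective tissue type proteases had higher means in GRdim, but not in each GRdim library. Tpsb2, the tryptase, stood at 8.42, 3.76 and 8.82 CPM in GRwt replicates 1, 2 and 3 and at 4.68, 41.2 and 55.8 CPM in GRdim replicates 1, 2 and 3. GRdim replicates 2 and 3 lay above every GRwt library and GRdim replicate 1 lay among them. The means were 7.0 ± 2.81 and 33.9 ± 26.3 CPM (SD, n = 3 per group). EdgeR gave a log2 fold change of 2.27 (SE 0.75), with an unadjusted p of 0.0153 and an adjusted p of 0.99994. The exact permutation test gave p = 0.3. Without GRdim replicate 1 the log2 fold change was 2.78 and without GRdim replicate 3 it was 1.71, with adjusted p of 0.316 and 1 by edgeR. Over all alternatives it stayed positive, from 1.71 to 2.97, and the adjusted p ran from 0.316 to 1.

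Cma1, the chymase that marks connective tissue mast cells and whose promoter drives a widely used mast cell Cre, stood at 12.8, 4.98 and 7.41 CPM in GRwt and 8.84, 18.7 and 29.8 CPM in GRdim replicates 1 to 3. Here too GRdim replicates 2 and 3 lay above every GRwt library. The means were 8.39 ± 3.98 and 19.1 ± 10.5 CPM (SD, n = 3 per group), with a log2 fold change of 1.18 (SE 0.48, edgeR unadjusted p = 0.0365, adjusted p = 0.99994), and 0.71 without GRdim replicate 3. Mcpt4, the mouse chymase closest in function to human chymase, had the lowest mean of the 4 chymases, with 3.33, 2.80 and 2.46 CPM in GRwt and 3.14, 4.0 and 7.49 CPM in GRdim. GRdim replicate 1 lay within the GRwt range, GRdim replicate 2 just above it and GRdim replicate 3 at more than any other library. Its log2 fold change was 0.77 (SE 0.39, edgeR unadjusted p = 0.0841), and 0.31 without GRdim replicate 3. Cma1 and Mcpt4 were the closest pair among the connective tissue proteases, with a distance of 0.45, and Tpsb2 was farther from both, at 0.76 from Cma1 and 1.10 from Mcpt4. By the same measure Mcpt4 was nearer to Cpa3, at 0.55, than to Tpsb2. Mcpt1 and Mcpt4, with much the same upstream sequence and transcripts 85.7% identical over 974 bases, had a distance of 1.33. Their centred log2 CPM lay farthest apart in GRdim replicate 3, at -1.80 and 1.04. They also differed in GRwt replicate 1 (1.04 and -0.11), GRwt replicate 2 (0.33 and -0.36) and GRdim replicate 2 (0.99 and 0.15).

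Cpa3, the granule carboxypeptidase made by both mast cell types, varied least of the 10 members, by 2.37-fold. It stood at 9.16, 5.29 and 3.87 CPM in GRwt and 5.20, 7.11 and 5.62 CPM in GRdim replicates 1 to 3. Its log2 fold change was -0.03 (SE 0.36, edgeR unadjusted p = 0.934), and it was 0.39 without GRwt replicate 1. GRdim replicate 3, lowest in Mcpt1 and Mcpt2 and highest in Tpsb2, Cma1 and Mcpt4, thus lay in the middle of the libraries in Cpa3.

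Set against Cpa3 within a library, which removes library scaling, the proteases showed the same division. Counts of Mcpt1 per count of Cpa3 were 11.3, 12 and 9.34 in GRwt and 9.12, 14.1 and 2.56 in GRdim replicates 1 to 3. Counts of Cma1 per count of Cpa3 were 1.39, 0.942 and 1.91 in GRwt and 1.70, 2.63 and 5.31 in GRdim. Tpsb2 gave 0.919, 0.712 and 2.28 in GRwt and 0.899, 5.80 and 9.93 in GRdim. GRdim replicate 3 stood apart in all 3 ratios, low in the first and high in the others, and GRdim replicate 2 in the Tpsb2 ratio, where it also had the highest Mcpt1 ratio. The ratio of Tpsb2 to Mcpt1 counts was 0.0595 to 0.244 in GRwt libraries and 0.0986, 0.411 and 3.88 in GRdim replicates 1, 2 and 3.

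Levels of different genes were compared per kilobase of annotated exon. In GRwt, the mean level in CPM per kb was 66.8 for Mcpt1, 34.4 for Mcpt2, 7.69 for Cma1, 4.98 for Kit, 4.39 for Tpsb2, 4.03 for Cpa3, 2.58 for Mcpt4, 0.940 for Fcer1a, 0.622 for Hdc and 0.512 for Ms4a2. In GRdim it was 53.3 for Mcpt1, 25.3 for Mcpt2, 21.3 for Tpsb2, 17.5 for Cma1, 5.53 for Kit, 4.4 for Mcpt4, 3.94 for Cpa3, 1.35 for Fcer1a, 0.615 for Ms4a2 and 0.488 for Hdc. Tpsb2 thus stood below Cma1 and Kit in GRwt and above both in GRdim, and Hdc and Ms4a2 changed places. Over the 6 libraries, genes next to each other in the GRwt order overlapped in range, though Mcpt1 was above Mcpt2 in every library. Of the summed CPM per kb of the 6 proteases, Mcpt1 and Mcpt2 made up 85.5%, 87.9% and 76.3% in GRwt replicates 1, 2 and 3. They made up 80.4%, 73.7% and 22.5% in GRdim replicates 1, 2 and 3, where Mcpt4, Cma1 and Tpsb2 made up 15.7%, 23.9% and 73.6%. The mucosal chymases were thus the larger part in 5 of the 6 libraries and the smaller part in GRdim replicate 3, while the share of Cpa3 stayed between 2.41% and 3.94%.

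**Figure D2:**
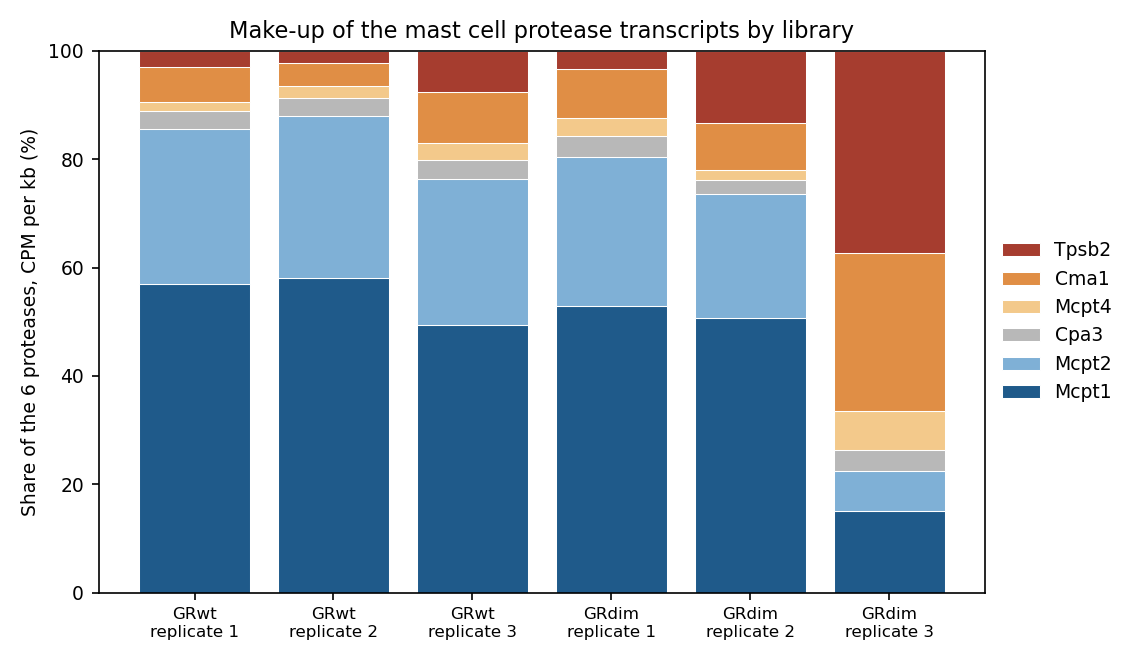
Share of each protease in the summed CPM per kb of exon of the 6 proteases (vertical axis, percent) for each library. Mcpt1 and Mcpt2 (blue) hold 73.7% to 87.9% in 5 libraries and 22.5% in GRdim replicate 3, where Tpsb2, Cma1 and Mcpt4 (red to yellow) hold 73.6%.

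Transcripts of smooth muscle moved with part of this pattern. All 8 smooth muscle markers were in the table and detected in every library, and all 8 had a higher mean in GRdim, 7 of them with an unadjusted p under 0.05 by edgeR and 0 with an adjusted one. The 3 of smallest p, Myh11, Myl9 and Actg2, had log2 fold changes of 1.57, 1.51 and 1.43 (SE 0.55, 0.53 and 0.52). Their summed level was 1382 to 1578 CPM in GRwt, and 2751, 1372 and 7106 CPM in GRdim replicates 1, 2 and 3. GRdim replicate 3 was thus the highest in smooth muscle transcripts and in Cma1, Mcpt4 and Tpsb2, and the lowest in Mcpt1 and Mcpt2. GRdim replicate 2 had the lowest smooth muscle level of all 6 libraries, close to the 1382 CPM of GRwt replicate 2. It held Tpsb2 at 41.2 CPM and Cma1 at 18.7 CPM. GRdim replicate 1 had the second highest smooth muscle level and held Tpsb2 at 4.68 CPM. The part of the muscle content in the levels of Cma1, Mcpt4 and Tpsb2 was not tested.

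**Figure D3:**
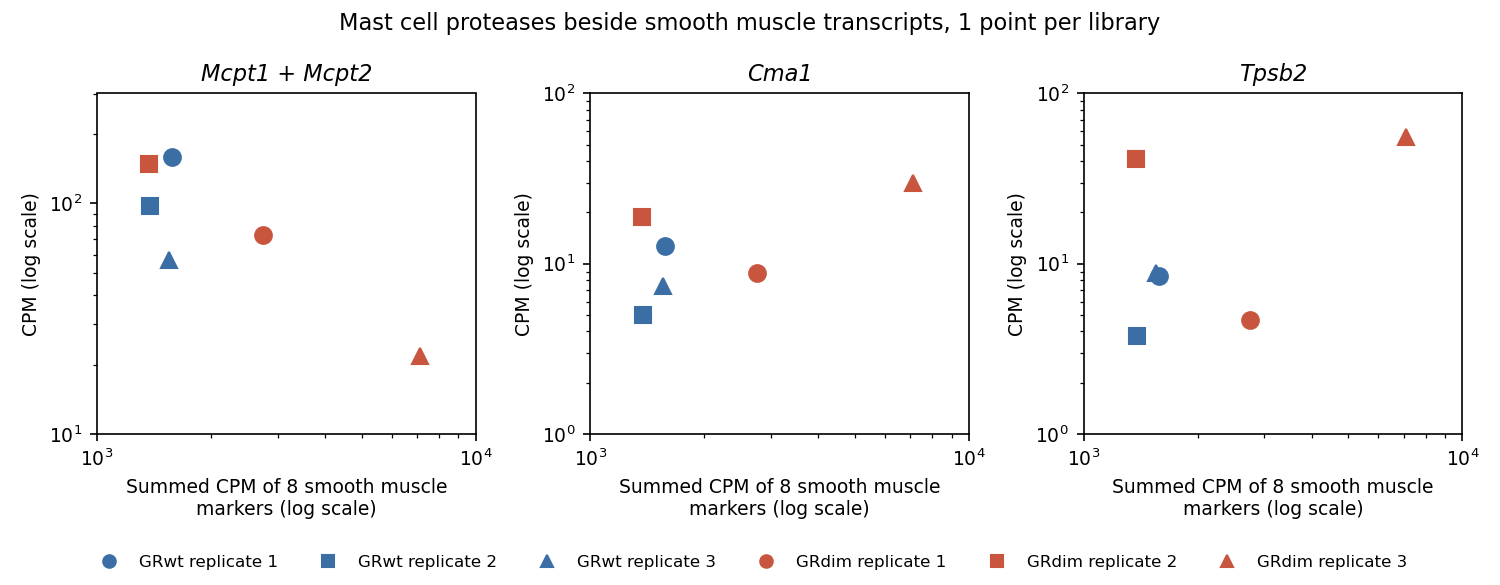
CPM of the summed Mcpt1 and Mcpt2, of Cma1 and of Tpsb2 (vertical axes, log scale) against the summed CPM of 8 smooth muscle markers (horizontal axes, log scale), with 1 point per library. GRdim replicate 3 lies far right, low for Mcpt1 and Mcpt2 and high for Cma1 and Tpsb2, whereas GRdim replicate 2 has Tpsb2 at 41.2 CPM at the lowest muscle level.

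In the 4 libraries named without a T, 5 members were higher in GRdim, Tpsb2, Cma1 and Mcpt4 among them, and 5 were lower. The log2 fold changes there were 2.97 (SE 0.41) for Tpsb2, 1.43 (SE 0.49) for Cma1 and 0.90 (SE 0.45) for Mcpt4, with edgeR adjusted p of 0.465, 0.735 and 0.828. In the other 2 libraries, 1 of each genotype, Tpsb2 went the other way, at 8.82 CPM in GRwt replicate 3 and 4.68 CPM in GRdim replicate 1, while Cma1 stood at 7.41 and 8.84 CPM and Mcpt4 at 2.46 and 3.14 CPM. If GRdim replicates 1 and 3 came from 1 animal, that animal gave Tpsb2 at both 4.68 and 55.8 CPM. With their counts summed as 1 sample, the log2 fold change of Tpsb2 was 2.34 (SE 0.36, edgeR adjusted p = 0.461).

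Of the receptors, the IgE receptor chains Fcer1a and Ms4a2 ran closest to Cpa3 among the proteases, with distances of 0.42 and 0.57. Kit ran closest to Cpa3 too, at 0.66. Fcer1a, the chain of the IgE receptor that binds IgE, and Ms4a2, its signal-amplifying beta chain, rested on few reads, with 12 to 80 and 21 to 119 counts per library. Fcer1a stood at 1.46, 0.610 and 0.746 CPM in GRwt and 0.786, 2.27 and 0.992 CPM in GRdim replicates 1 to 3. Ms4a2 stood at 1.79, 1.07 and 1.46 CPM in GRwt and 0.973, 3.37 and 0.845 CPM in GRdim. Both were highest in GRdim replicate 2, with exact 95% Poisson intervals, which cover counting error only, of 1.80 to 2.82 CPM for Fcer1a and 2.79 to 4.04 CPM for Ms4a2. In GRwt replicate 1 the intervals were 1.08 to 1.93 CPM, which overlaps, and 1.36 to 2.30 CPM, which does not. They formed the second closest pair of members, with a distance of 0.37. Log2 fold changes were 0.52 (SE 0.56) and 0.27 (SE 0.58) with edgeR unadjusted p of 0.384 and 0.660, and without GRdim replicate 2 they were -0.09 and -0.67.

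Kit, the receptor for stem cell factor on which mast cells depend, is also made by the pacemaker cells of the gut wall (interstitial cells of Cajal) and, in the mouse colon, by secretory cells deep in the crypts. It stood at 44.5, 49.2 and 39.5 CPM in GRwt and at 82.6, 40.9 and 24.2 CPM in GRdim replicates 1 to 3. The GRwt libraries lay close together and inside the range of the GRdim libraries, with GRdim replicate 1 high and GRdim replicate 3 low. The log2 fold change was 0.15 (SE 0.39, edgeR unadjusted p = 0.709), but -0.45 when GRdim replicate 1 was left out and -0.53 in the 4 libraries named without a T. Counts of Kit per count of Mcpt1 ran from 0.408 to 1.74, and GRdim replicate 1, highest in Kit, was neither the highest nor the lowest in Cpa3, Mcpt1 and Mcpt2.

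Transcripts on the marker lists of both other cell types that make Kit were found in these libraries. Their detection in bulk RNA does not by itself show that those cells were present. Of 7 interstitial cell of Cajal markers all were in the table, Hcn4 being at 0 in GRwt replicate 2, and their summed level was 385 to 686 CPM in GRwt and 432 to 816 CPM in GRdim, highest in GRdim replicate 1. Most of that sum was Thbs4 and Ano1, which other cells of the colon make too. Of the 6 tested, 4 were higher and 2 lower in GRdim, with a median log2 fold change of 0.18. The 3 of smallest p, Gucy1a1, Gucy1b1 and Thbs4, had log2 fold changes of 1.07 (SE 0.42), 0.56 (SE 0.32) and -0.35 (SE 0.40). All 6 markers of deep crypt secretory cells, among them Agr2, Spink4, Reg4 and Muc2, were detected in every library. Their sum, to which Muc2 gave 1462 to 24954 CPM, was 20527, 26977 and 22354 CPM in GRwt replicates 1 to 3. In GRdim replicates 1 to 3 it was 35562, 13699 and 4042 CPM. That is the order of Kit in the GRdim libraries, but the GRwt order differs from that of Kit. Agr2 (972 and 1022 CPM) and Spink4 (769 and 901 CPM) were lower in GRdim replicate 1 than in GRdim replicate 2, while Muc2, Reg4, Clca1 and Fcgbp were higher. The part of these cells in the level of Kit was not tested.

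Hdc, histidine decarboxylase, is made by mast cells, basophils and immature myeloid cells. It stood at 3.75, 3.31 and 4.86 CPM in GRwt and 2.51, 1.96 and 4.88 CPM in GRdim replicates 1 to 3. GRdim replicates 1 and 2 lay below every GRwt library and GRdim replicate 3 was level with the highest of them, with a log2 fold change of -0.36 (SE 0.41, edgeR unadjusted p = 0.409), and -0.84 without GRdim replicate 3. GRdim replicate 2, which was highest in Fcer1a and Ms4a2, was lowest in Hdc. Neutrophil markers, 8 of 8 with a lower mean in GRdim, had summed levels of 202 to 343 CPM in GRwt and 146 to 202 CPM in GRdim, lowest in GRdim replicate 1. Ly6g gave 98 to 266 CPM of these sums in GRwt and 95.8 to 170 CPM in GRdim, and without it the sums were 76.4, 77 and 104 CPM in GRwt and 49.7, 36.4 and 31.9 CPM in GRdim replicates 1, 2 and 3. S100a8, Csf3r and S100a9, the 3 of smallest p, had log2 fold changes of -1.94, -1.02 and -1.48 (SE 0.36, 0.29 and 0.50). Of 6 basophil markers 5 were in the table, with a summed level of 62.6 to 101 CPM in GRwt and 44.0 to 85.1 CPM in GRdim. Most of that sum was Itga2, at 53.0 to 87.3 CPM in GRwt and 32.8 to 65.6 CPM in GRdim, and Il6ra stood at 6.72 to 12.2 and 8.96 to 17.5 CPM, and both genes are made by other cells too. Mcpt8, a protease of basophils, stood at 0.102 to 0.417 CPM in GRwt and 0.147 to 0.255 CPM in GRdim, and Cd200r3 at 0.417 to 0.553 and 0.551 to 0.749 CPM. The part of either cell type in the level of Hdc was not tested.

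**Figure D4:**
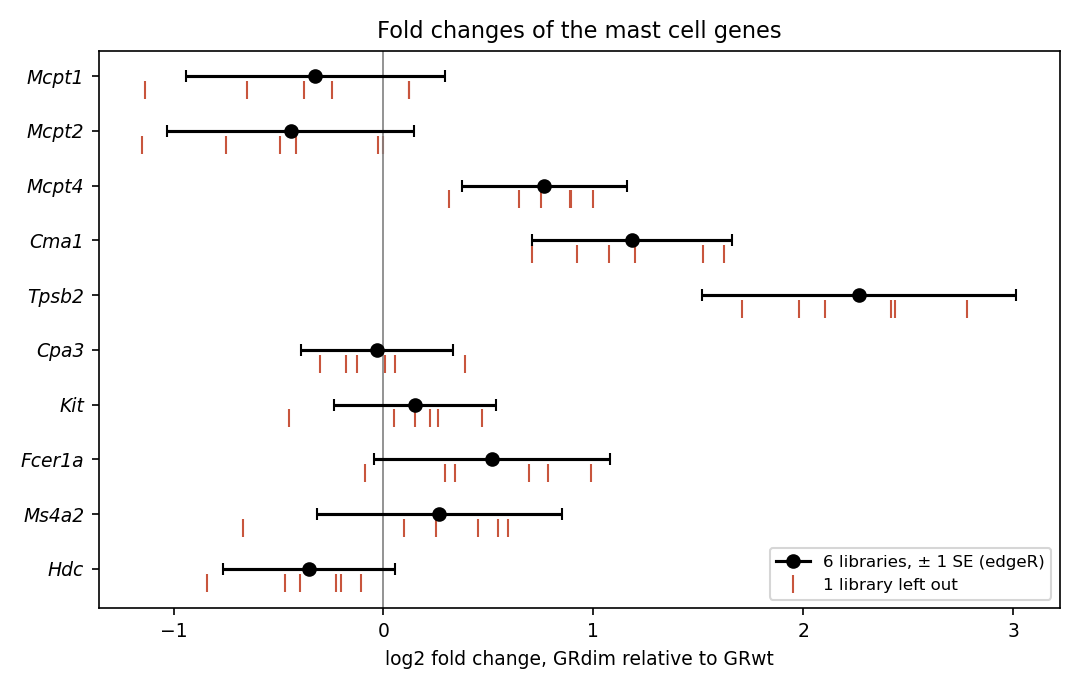
Log2 fold change of each member, GRdim relative to GRwt (horizontal axis), from all 6 libraries with 1 standard error (black) and with each library left out in turn (red ticks). Tpsb2, Cma1 and Mcpt4 stay above 0 in every tick, whereas Mcpt1, Cpa3, Kit, Fcer1a and Ms4a2 have ticks on both sides.

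Further genes of mast cell biology are described by counts from lists of 16 proteases and granule genes, 14 receptors, 17 signalling genes, 10 transcription factors and 15 growth and homing factors, and none of their tested members had an edgeR adjusted p under 0.05. Among the 14 granule genes tested 7 were higher and 7 lower in GRdim, with a median log2 fold change of -0.006 beside 0.004 for all genes. Hs3st1, a heparan sulfate sulfotransferase, was the granule gene of smallest p, at 49.0, 42.4 and 33.1 CPM in GRwt and 25.4, 33.3 and 25.8 CPM in GRdim (log2 fold change -0.56, SE 0.21, edgeR unadjusted p = 0.0263). Tpsg1, a tryptase gene next to Tpsb2 on the same strand and second by p, stood at 53.5, 59.7 and 25.3 CPM in GRwt and 34.7, 39.8 and 12.2 CPM in GRdim replicates 1 to 3 (log2 fold change -0.67, SE 0.45). Tpsg1 was lowest in GRdim replicate 3, where Tpsb2 was highest. The GRwt means of Hs3st1 and Tpsg1 were 41.5 and 46.2 CPM over 2230 and 1389 bases of exon. Cpa3 had 6.11 CPM over 1517 bases, and the member Mcpt1 67.8 CPM over 1014 bases. The part of mast cells in the levels of Hs3st1 and Tpsg1 was not tested. Ndst2, a heparin sulfotransferase, was higher in GRdim without overlap, with a log2 fold change of 0.20 (SE 0.16). Tpsab1, the tryptase gene on the other side of Tpsb2, is given with its values already known, at 10.9, 8.65 and 3.65 CPM in GRwt and 7.11, 9.41 and 14.8 CPM in GRdim replicates 1 to 3. Tpsab1 was highest in GRdim replicate 3 as Tpsb2 was, but in GRdim replicate 2 it stayed within the GRwt range. Counts of Tpsb2 per count of Tpsab1 were 0.775, 0.435 and 2.42 in GRwt and 0.658, 4.38 and 3.78 in GRdim.

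Among 9 tested transcription factors of mast cells 8 were higher and 1 lower, with a median log2 fold change of 0.09. Gata2, which mast cells need for their identity and which vessels and other stromal cells also make, stood at 4.91, 6.10 and 7.44 CPM in GRwt and 5.58, 16.8 and 32.7 CPM in GRdim replicates 1 to 3 (log2 fold change 1.58, SE 0.54, edgeR unadjusted p = 0.0188, adjusted p = 0.99994). Its 2 high libraries were those of Tpsb2 and Cma1, while GRdim replicate 1 lay in the GRwt range. Lmo2, a partner of GATA factors in blood cells, stood at 15.5, 12.1 and 17.2 CPM in GRwt and 14.8, 28.8 and 22.3 CPM in GRdim (log2 fold change 0.56, SE 0.28). Mitf, a factor that mast cells share with pigment cells, had a log2 fold change of 0.44 (SE 0.33).

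Of 17 signalling genes downstream of the IgE receptor and Kit 12 were higher and 5 lower, with a median log2 fold change of 0.09 and 0 with an unadjusted p under 0.05 by edgeR. The adaptors Lat and Lat2 and the kinase Btk, the 3 of smallest p, had log2 fold changes of 0.71, 0.52 and 0.65 (SE 0.41, 0.36 and 0.43), and T cells, B cells and macrophages make them as well. Of 11 tested receptors 5 were higher and 6 lower. Il1rl1, the receptor for the alarmin Il33, which mast cells carry, stood at 152, 165 and 249 CPM in GRwt and 79.9, 75.1 and 41.9 CPM in GRdim, without overlap (log2 fold change -1.52, SE 0.30, edgeR unadjusted p = 7.43e-04, adjusted p = 0.99994). Siglecf and Cd200r1, inhibitory receptors, were higher in GRdim by the narrowest of margins, with log2 fold changes of 0.81 (SE 0.49) and 0.43 (SE 0.39). The groups did not overlap but all but touched. Siglecf, with 7 to 33 counts per library, stood at 0.477 CPM in GRdim replicate 3 and 0.476 CPM in GRwt replicate 1. Cd200r1 stood at 1.35 CPM in GRdim replicate 1 and 1.33 CPM in GRwt replicate 3. The groups did not overlap for 6.55% of all genes tested. Siglecf is also on the list of eosinophil markers. Il1rl1 was highest in GRwt replicate 3, the GRwt library lowest in Mcpt1 and Cpa3. Its GRwt mean was 189 CPM over 6894 bases of exon, against 6.11 CPM over 1517 bases for Cpa3. The part of mast cells in the level of Il1rl1 was not tested.

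Among 12 tested growth and homing factors 7 were higher and 5 lower. Il33, which activates mast cells through Il1rl1, stood at 40.5, 36.8 and 43.1 CPM in GRwt and 20.4, 13.9 and 14.8 CPM in GRdim (log2 fold change -1.29, SE 0.20, edgeR unadjusted p = 1.75e-04, adjusted p = 0.99994). The chemokines Cxcl12 and Ccl2 had log2 fold changes of 0.62 (SE 0.31) and -0.59 (SE 0.36). Kitl, the ligand of Kit, likewise given with its values known, was at 114, 102 and 172 CPM in GRwt and 162, 155 and 145 CPM in GRdim, with a log2 fold change of 0.25 (SE 0.22). Of 7 tested genes of histamine breakdown, transport and reception 4 were higher and 3 lower. The 3 of smallest p were Slc22a3, a transporter, at 5.84 ± 2.94 and 3.26 ± 0.830 CPM, Hrh3, a histamine receptor, at 0.365 ± 0.150 and 0.907 ± 0.682 CPM, and Hnmt, which methylates histamine, at 0.985 ± 0.167 and 1.37 ± 0.293 CPM (SD, n = 3 per group).

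The genes whose levels ran most like the mean log2 CPM of the 6 proteases were taken from 13893 other named genes with a mean of at least 1 CPM, by root mean square distance of centred log2 CPM over the 6 libraries. They were Mt1, a metallothionein, with a distance of 0.073, followed by Rptoros, Kcnu1, Ttr, Septin1 and Tnfrsf25, with distances of 0.11 to 0.17, beside 0.48 for the spread of the protease mean itself. Mt1 stood at 162, 86.3 and 92.5 CPM in GRwt and 93.3, 193 and 136 CPM in GRdim replicates 1 to 3. With 6 libraries and so many genes, the search itself favours close matches, and the mean joins proteases that ran apart in GRdim replicate 3.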

How the data were processed

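Polyadenylated RNA of 6 colonic tumor samples was sequenced, 3 GRwt and 3 GRdim. The library kit was Illumina Stranded mRNA Prep, per the labels. Per the submitters' processing notes, the tools were bcl2fastq 2.20.0.422, Trim Galore, FastQC, MultiQC, STAR 2.7.8a, featureCounts of Subread 1.5.0 and DESeq2 1.40.2, with the build GRCm39. The annotation release, the strand setting and the handling of reads that match several genes are not given in the sources used here. The deposited table holds raw counts per gene, with no normalization.

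Each column was tied to its sample through the library name given in the description. All genes were fitted with edgeR 4.0.16 in R 4.3.3 (quasi-likelihood F test, TMM, default filter on low counts by group, robust estimation), which tested 18756 of 24797 genes, all 10 members among them. The threshold was a Benjamini-Hochberg adjusted p of 0.05. CPM are counts over the TMM-scaled total of the tested genes, and log2 CPM used a prior count of 2. The standard error is the log2 fold change divided by the square root of F. Exon lengths came from GENCODE M21 by Ensembl ID, as the union of all annotated exons, for all 10 members, and transcript identities from local alignments of its longest protein-coding transcripts. The procedure was tested on simulated data.

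All members were named. From every other list the genes past the threshold and up to 3 of smallest p were to be named, and named genes of the lists outside this rule, such as Tpsab1, Kitl, Mcpt8, Hcn4, Ano1, Muc2, Ly6g, Mcpt9, Mrgprb1 and Mrgprb2, were chosen after their values were seen. The eosinophil and adipocyte markers are not described. The members, lists and rules were chosen with earlier results of these data known. The alternatives were DESeq2 1.42.0, relative log expression factors, no filter on low counts, the replicate number as a block, the T as a covariate, the 4 libraries named without a T, GRdim replicates 1 and 3 summed, and each library left out in turn.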

Additional observations from a re-analysis of the deposited data

How the results depend on the processing

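No member was called under any of the 13 alternatives, and of 130 member values 115 kept their direction and 15 did not. DESeq2 called 10 genes higher and 23 lower, none a member, where edgeR called 0 in each direction, with 541 genes at an unadjusted p under 0.05 in edgeR. The log2 fold changes of Tpsb2, Cma1, Mcpt4, Mcpt2 and Hdc kept their sign under all 13 alternatives. With 1 library left out in turn, Mcpt1 ran from -1.14 to 0.12, Cpa3 from -0.30 to 0.39, Kit from -0.45 to 0.47, Fcer1a from -0.090 to 0.99 and Ms4a2 from -0.67 to 0.59. Kit was -0.53 in the 4 libraries named without a T and -0.00167 with the T as a covariate. Cpa3 was 0.0148 with that covariate and 0.0232 with GRdim replicates 1 and 3 summed. With the replicate number as a block, Cpa3 was 0.0528, Kit -0.0309 and Ms4a2 -0.0348, Tpsb2 was 1.90, and 0 genes were called. Deviations of same-numbered libraries from their group means correlated at -0.39, 0.03 and -0.43 for numbers 1, 2 and 3. Within a group the deviations sum to 0, so the correlations constrain each other and cannot decide whether the block has a ground. Across numbers, GRwt replicate 3 and GRdim replicate 1, the libraries with a T, correlated at 0.45, and GRwt replicate 1 and GRdim replicate 3 at 0.397. The remaining pairs lay between -0.121 and 0.0926. The median of the members was 0.21, and -0.10 without GRdim replicate 2. The cause of these changes was not tested. With 3 libraries per genotype, and 12 to 119 counts for Fcer1a and Ms4a2, the precision was low.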

Other observations

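Transcripts of receptors of connective tissue mast cells were near the limit of counting in 5 libraries. Mrgprb2, the receptor through which basic peptides and several drugs activate such cells, had 3, 0 and 4 counts in GRwt and 3, 4 and 15 counts in GRdim replicates 1, 2 and 3, and Mrgprb1, its relative, had 5, 2 and 5 counts in GRwt and 2, 3 and 18 counts in GRdim. Both were highest in GRdim replicate 3, at 0.551 CPM (exact 95% Poisson interval 0.308 to 0.909) and 0.661 CPM (0.392 to 1.04), and neither passed the filter on low counts. Mcpt9, a chymase gene between Mcpt1 and Mcpt2, had 57, 14 and 14 counts in GRwt and 28, 69 and 0 counts in GRdim replicates 1, 2 and 3. A count of 0 is given the limit of 3 counts, 0.110 CPM, and has an exact two-sided 95% Poisson upper bound of 0.135 CPM, in GRdim replicate 3, the library lowest in Mcpt1 and Mcpt2. The Mcpt9 transcript is 98.1% identical over 809 bases to that of Cma2, which lies on the other side of Mcpt1, and how the counting divided reads between them is not given in the sources used here. These 3 genes were chosen after their values were seen.

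The same search for like patterns was run, after the data were seen, for Tpsb2, Cma1 and Kit alone. Nearest to Cma1 were Alox12e, a lipoxygenase gene, with a distance of 0.15, and Irx5, a homeobox gene, with 0.16. Nearest to Tpsb2 were Tex19.2 (0.32) and the hair keratin Krt35 (0.40), which stood at 3.15, 3.05 and 6.61 CPM in GRwt and 2.43, 19.2 and 39.8 CPM in GRdim replicates 1 to 3. Nearest to Kit were Cfap45 (0.12) and Slc2a10 (0.12).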
